A study of Mus musculus with 14 samples.

Results

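MicroRNA (miRNA), small nucleolar RNA (snoRNA), small nuclear RNA (snRNA), small Cajal body RNA (scaRNA) and miscellaneous small RNA (misc_RNA) genes were followed across 12 exome-sequenced mouse mammary tumours. A gene was included if the deposited variant tables gave it one of these 5 biotypes in any tumour, which selected 5460 of 52292 genes listed in all: 2121 miRNA, 1431 snoRNA, 1315 snRNA, 51 scaRNA and 542 misc_RNA genes. These genes make short RNAs that are not translated. A miRNA is cut from a hairpin and, loaded into an Argonaute protein, pairs with messenger RNAs mainly through its seed, which lowers their translation and stability. Most snoRNAs guide chemical modification of ribosomal RNA, scaRNAs do the same for the RNAs of the spliceosome, and snRNAs build the spliceosome itself. Many of these genes lie inside introns of longer host genes.

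All tumours grew from mammary fragments of Balb/c mice lacking p53, and each group held 3 of them. In the gel experiment a collagen 1 and basement membrane (BM) hydrogel was placed in a cleared fat pad of mice aged 3 to 4 weeks before the fragment, which came from a syngeneic donor aged 8 to 10 weeks. The collagen had been kept in 0.1% acetic acid alone (soft; tumours A1, A2 and A3) or with 500 mM L-ribose, which crosslinks it (stiff; A7, A8 and A9), and the gel contained 20% BM extract. In the host experiment the fragment went into the fat pad of LysM-Cre mice that were wild-type (WT; B1, B2 and B3) or knockout (KO; B4, B5 and B6) for Gpx4. Its product is the enzyme that detoxifies peroxidised membrane lipids. LysM-Cre is active in cells of the myeloid lineage, so the label describes the host and not the tumour cells, and no source used here gives the age or strain of these hosts. Tumours were taken at a diameter of 2 cm. The 2 tail samples were not analysed here. The gels bear on matrix stiffness, and the hosts on lipid peroxidation around the tumour.

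For each gene 2 counts were read. The exon count is the number of variants inside the small RNA transcript, by the effect class for exons of non-coding transcripts. For genes of other biotypes the same class was counted, so variants in exons of protein-coding transcripts are not in their exon counts. The flanking count is the number of variants upstream plus downstream of it, so it describes the neighbourhood, often the intron or exon of a host gene, and not the small RNA. One variant is listed for every gene whose flank holds it, so genes that lie close together share flanking variants. Positions, bases, allele fractions and read depth are not listed in the tables. The depth behind each count is therefore unknown, inherited and somatic variants cannot be told apart, and it was not tested whether a variant falls in a seed, in the rest of a mature miRNA or in the loop of its hairpin.

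The mature miRNAs below are the ones the results return to, with the seed (bases 2 to 8) in capitals, 5′ to 3′, from RefSeq on build GRCm38.p6. The first 5 come from genes with an exon variant in every tumour. They are followed by miR-206, whose gene lies beside Mir133b and had none, by miR-363, which has the seed of miR-25, and by the miRNAs of 3 genes with no variant of one kind in every tumour of some group (exon variants for Mir6239, flanking variants for Mir3572 and Mir101c).
miR-133b-3p: uUUGGUCCccuucaaccagcua
miR-34a-5p: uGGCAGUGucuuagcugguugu
miR-25-3p: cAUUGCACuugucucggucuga
miR-193b-3p: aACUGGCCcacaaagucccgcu
miR-6546-3p: gAGCGAAGcccaagcgccaga
miR-206-3p: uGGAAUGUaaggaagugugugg
miR-363-3p: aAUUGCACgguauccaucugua
miR-6239: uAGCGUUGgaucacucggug
miR-3572-5p: uGGGGAACagggcaagguggac
miR-101c: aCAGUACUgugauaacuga
The seed of miR-25-3p is shared with miR-363-3p and with 4 other mature miRNAs of the table, among them miR-92a-3p of the miR-17-92 cluster. The seed of miR-34a-5p is shared with miR-34b-5p, miR-449a-5p and miR-449c-5p. A hairpin or mature sequence was found for 998 of the 2121 miRNA genes, and 101 of those 998 had an exon variant in at least 1 tumour.

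Exon variants were rare. Of the 5460 small RNA genes, 771 (14.1%) had an exon variant in any tumour. Among all other genes 47.6% had a variant in an exon of a non-coding transcript. Transcripts of these other genes are mostly longer, and variants in exons of protein-coding transcripts are left out of the 47.6%. By biotype the share was 12.2% for miRNA, 14.7% for snoRNA, 13.9% for snRNA, 15.7% for scaRNA and 20.5% for misc_RNA genes. The RefSeq hairpins are short, with a median of 79 nt. The exon variants of the 998 miRNA genes with a sequence were divided by the summed length of all 1005 RefSeq hairpins, 81.97 kb. This gave between 0.244 (A7 and A8) and 0.525 (B6) exon variants per kb of hairpin.

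Most genes hit were hit in 1 tumour. An exon variant was seen in a single tumour for 450 of the 771 genes (58.4%) and in all 12 for 48 (6.23%). Between these, 259 genes had one in 2 to 9 tumours, of which 147 in exactly 2, and 14 had one in 10 or 11. Among all other genes with an exon variant, 30.2% had it in 1 tumour and 12.3% in all 12. In 351 of the 450 genes the single tumour had 1 variant. B1 and B6 had the highest numbers of these genes, 66 and 64, and the other 10 tumours had between 26 (A8) and 40 (B3) each. The 48 genes found in every tumour carried 1224 of the 3414 exon variants (35.9%). In 32 of the 48 the count was the same in all 12 tumours, and in 23 it was 1 throughout.

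**Figure D1:**
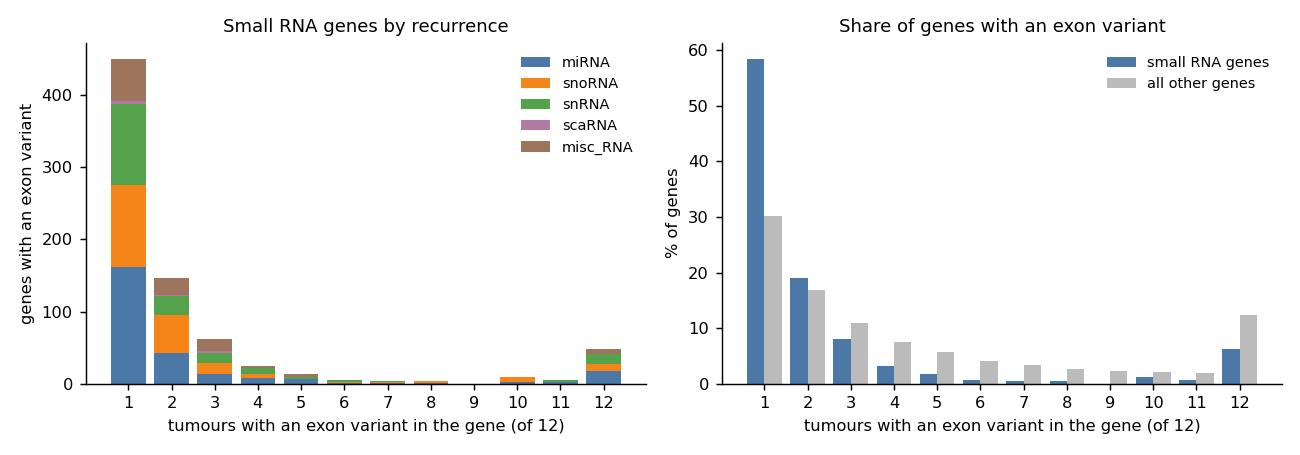
Recurrence of exon variants across the 12 tumours. Left, number of small RNA genes (stacked by biotype) with an exon variant in 1 to 12 tumours, with 450 genes at 1 tumour and 48 at 12; right, the same as a share of genes with any exon variant, for small RNA genes and for all other genes, where small RNA genes have the higher share at 1 tumour (58.4% against 30.2%) and the lower share at 12 (6.23% against 12.3%).

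Among the miRNA genes hit in every tumour, Mir133b and Gm44494 had the highest counts. Mir133b, on chromosome 1, makes a miRNA enriched in muscle and lies with Mir206 inside the long non-coding gene Lincmd1. It had 6 exon variants in each of the 12 tumours, over a hairpin of 119 nt. Mir206 had 0 in each of the 12, although its flanking count ran from 17 to 30 against 19 to 42 for Mir133b. Exon variants were thus listed in the one and not the other. As both genes lie together, their flanks may share variants, and whether reads covered Mir206 itself is unknown.

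Mir34a, a direct target of p53 that restrains the cell cycle, had 1 exon variant in 11 tumours and 2 in B5. Its flanking count lay between 11 and 19. Mir25, inside the replication gene Mcm7 and a member of a cluster related to miR-17-92, had 1 in each of the 12, as had Mir193b, Mir686 (inside the proteasome gene Psmb5) and Mir7080 (inside Cpne7). Mir6546, inside the Fc receptor gene Fcgr3, had 2 in each of the 12, in a hairpin of 62 nt. Its flanking count, 72 to 100, was among the 3 highest of all miRNA genes. Mir875, inside Vps13b, had 1 in 11 tumours and 2 in B5. The other 10 of the 18 miRNA genes found in all 12 tumours carry Gm names. Gm44494 had 6 in each tumour and Gm44313 and Gm44364 had 3 in each. None of these genes separated the groups, since the count was the same in every tumour or differed in B5 alone.

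Some snRNA genes also had several exon variants in every tumour. Gm24689 had 10 exon variants in 10 tumours, but 6 in A9 and 3 in B5. Gm24623, between Anxa3 and Bmp2k on chromosome 5, had 5 in each of the 12, and Gm22297, inside Dhx33 on chromosome 11, had 6 to 8. The symbols of these genes name no snRNA family. Of 22 genes named as spliceosomal or histone-processing snRNAs only Rnu6 had an exon variant, with 2 in B2. Rn7s2, which makes the RNA of the signal recognition particle, had 1 in each of the 12 tumours. The miRNA gene Gm47299 had the same exon counts and a flanking count equal to that of Rn7s2 in all tumours but A7 (26 against 27). In 10 sets of 20 genes in all, every exon and flanking count was identical, and 6 of these sets shared 1 symbol. Families with near-identical copies, which include most snRNA and many snoRNA genes, are uncertain because reads can be placed on the wrong copy.

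Named families of small RNAs are read here beside the 14.1% of all small RNA genes that had an exon variant. The lists were chosen with earlier results of these data known, and their counts are descriptions. In the let-7 and miR-98 family, which holds back proliferation in differentiated cells, 1 of 12 genes had an exon variant. This was Mirlet7g, with 1 each in A2, B4 and B6. Of the 15 genes of the miR-17-92 cluster and its relatives, 3 had one: Mir25, Mir19a (1 in B1) and Mir363 (1 in B5). In the miR-200 family, which maintains epithelial identity, 1 of 5 did, Mir200a with 1 each in A1 and A3. Of 10 p53-regulated miRNA genes, 3 did: Mir34a, Mir145a (1 in B6) and Mir107 (1 in A3).

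Lists tied to the stroma and to the host cells were counted in the same way. None of the 4 miR-29 genes, whose targets include collagen messenger RNAs, had an exon variant in any tumour, and the flank of each held 0 to 3 variants per tumour. Of 14 myeloid miRNA genes only Mir142b had one, with 1 each in B1 and B2. Of 27 genes described in mammary tumours and metastasis 3 did: Mir125b-1 (1 each in B5 and B6), Mir9-2 (1 in A2) and Mir204 (1 in B1). None of the 54 miRNA genes of the imprinted Dlk1-Dio3 cluster, the 9 named Cajal body RNAs or the 4 snoRNAs in Rpl13a introns had one. Rpl13a snoRNAs are known from work on lipotoxic and oxidative stress. Among the repeated Sfmbt2-type miRNAs it was 3 of 81, among C/D box snoRNAs 15 of 99 and among H/ACA box snoRNAs 10 of 40. Over all small RNA genes the share was 14.1%.

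The summed exon variants per tumour described the load of each group. Soft gel tumours held 253 (A1), 289 (A2) and 276 (A3), and stiff gel tumours 254 (A7), 257 (A8) and 180 (A9). WT host tumours held 390 (B1), 342 (B2) and 300 (B3), and KO host tumours 290 (B4), 182 (B5) and 401 (B6). The soft and stiff ranges overlapped, as did the WT and KO ranges, and A9 and B5 were the lowest of the 12. The means were 272.7 ± 18.2 for soft, 230.3 ± 43.6 for stiff, 344.0 ± 45.0 for WT and 291.0 ± 109.5 for KO (SD, n = 3 each). The difference of means was -15.5% for stiff against soft, -15.4% for KO against WT and -20.8% for gel against host tumours (n = 6 each). Without B5 the difference of KO from WT was 0.436%, so its sign turned on 1 tumour. Without A9 that of stiff from soft was -6.3%.

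Flanking variants gave the same order of groups. The sums were 20112, 22508 and 21141 in soft tumours (A1 to A3) and 20069, 18896 and 14475 in stiff tumours (A7 to A9). In the host experiment they were 33900, 29000 and 24699 for WT (B1 to B3) and 21225, 15042 and 31425 for KO (B4 to B6). All stiff tumours lay below all soft ones, though A7 lay below A1 by less than the spread among soft tumours (SD 1202), and WT and KO overlapped. The difference of means was -16.2% for stiff against soft (-8.33% without A9), -22.7% for KO against WT (-9.84% without B5) and -24.5% for gel against host. Over all genes of all biotypes the same 3 differences were -12.8%, -21.4% and -22.9%, close to those of the small RNA genes. The soft and stiff sums over all genes overlapped, with A7 (250770) above A1 (249063). With 3 tumours a group, sums over chosen genes were given no test.

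The number of exon variants per 100 flanking variants was nearly constant. It was 1.26, 1.28 and 1.31 in soft tumours, 1.27, 1.36 and 1.24 in stiff, 1.15, 1.18 and 1.21 in WT, and 1.37, 1.21 and 1.28 in KO. Soft and stiff means, 1.28 ± 0.025 and 1.29 ± 0.062, differed by less than either SD. KO, at 1.29 ± 0.080, was above WT, at 1.18 ± 0.030, and B5 equalled B3. Per biotype, the miRNA exon sums of stiff tumours (90, 85 and 57) all lay below those of soft tumours (95, 94 and 97). The snRNA exon sums of KO tumours (83, 57 and 83) all lay below those of WT tumours (101, 96 and 84), by 1 variant between B3 and its nearest KO tumours. The other exon sums by biotype overlapped in both comparisons, as did the exon sums over all genes.

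**Figure D2:**
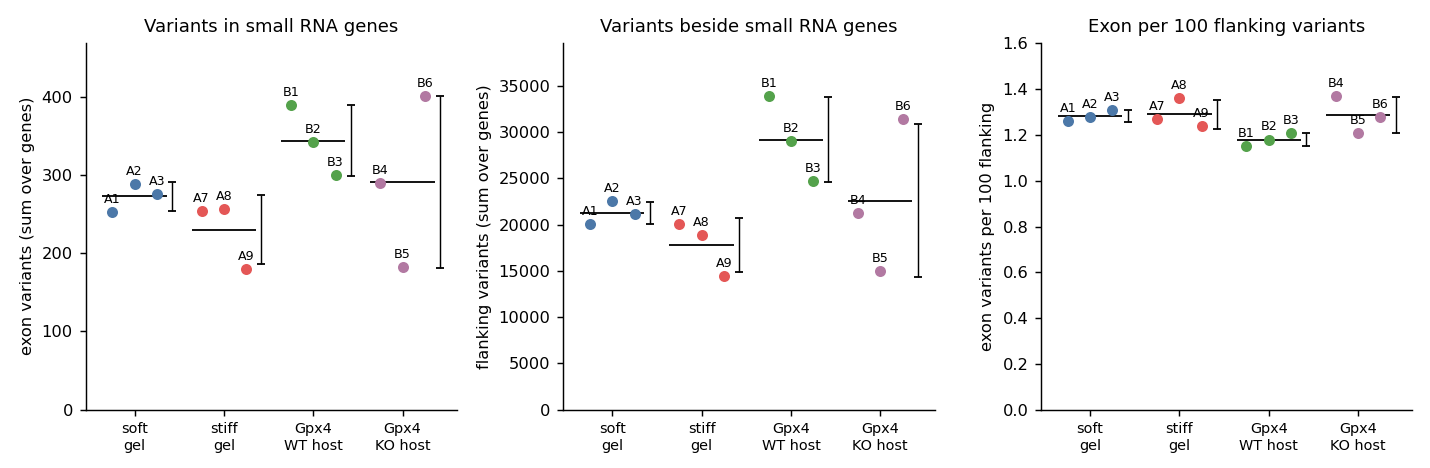
Small RNA variants per tumour by group (points, tumours; line, group mean; bar, SD, n = 3). Left, summed exon variants; middle, summed flanking variants; right, exon variants per 100 flanking variants. A9 (180 and 14475) and B5 (182 and 15042) are the lowest tumours in both sums, while the ratio stays between 1.15 and 1.37.

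No small RNA gene passed the test between groups by exon count, which does not show that the counts were equal. In edgeR's quasi-likelihood test across genes of all biotypes, 0.0% of 8952 genes passed an adjusted p of 0.05 for stiff against soft, and none of 131 small RNA genes tested. For KO against WT it was 0.0% of 10659 genes, and none of 185 small RNA genes. For gel against host it was 0.0144% (2 of 13914 genes), and none of 261 small RNA genes. At an unadjusted p under 0.05 there were 3, 3 and 6 small RNA genes, of 273, 445 and 1038 genes in all. DESeq2 called no small RNA gene by exon count in any of the 3 comparisons, with 0, 2 and 22 calls over all genes. The median log2 fold change of the small RNA genes tested was 0 for stiff against soft, 0 for KO against WT and -0.25 for gel against host, beside 0, -0.30 and -0.38 over all genes tested.

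A few genes had an exon variant in all 3 tumours of one group and none of the other. In soft but not stiff tumours there were 3, 0.714% of the 420 small RNA genes with an exon variant in the gel experiment, against 0.777% of all genes. In stiff but not soft there were none (0.293% of all genes). These 3 were the misc_RNA gene Gm24990 and the snoRNA genes Gm22497 and Gm25120. Gm24990 had 4 in each of A1, A2 and A3 and 0 in the stiff tumours, but also 4 in B1 and 1 in B6. Gm22497, near Cdkn2c on chromosome 4, had 2, 2 and 1 in soft tumours and 0 in the other 9.

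In KO but not WT tumours there was 1 such gene, Mir6239. This was 0.175% of the 571 small RNA genes with an exon variant in the host experiment, against 0.327% of all genes. Mir6239 lies inside Gpc6 on chromosome 14. It had 4, 2 and 6 exon variants in B4, B5 and B6 and 0 in B1, B2 and B3. It also had 6 in A3 and 0 in the other gel tumours, so 1 tumour outside the KO hosts carried as many as any of them. In WT but not KO there were 2, 0.35% of the 571 small RNA genes against 1.02% of all genes. These were the snRNA gene Gm23845 with 1, 4 and 1, and the snoRNA gene Gm24665 with 2, 2 and 1. Gm24665 also had 1 in each of 4 gel tumours. No small RNA gene split gel from host tumours in either direction, where the background was 0.00434% for gel only and 0.0391% for host only. All these shares are near or under the background.

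By flanking count, 2 small RNA genes passed the test of gel against host. The background was 0.103% (33 of 32011 genes), and the 2 genes were 0.0692% of the 2890 small RNA genes tested. Gm22786, a snoRNA gene inside Psmd1 and next to the serotonin receptor gene Htr2b on chromosome 1, had flanking counts of 13, 18 and 15 in soft, 14, 19 and 13 in stiff, 12, 7 and 12 in WT and 0, 0 and 0 in KO tumours. The KO tumours stood apart from the other 9. Mir3572, inside Cnot3 on chromosome 7, which encodes a subunit of the deadenylase that shortens messenger RNA tails, had 8, 8 and 10 in soft, 8, 7 and 11 in stiff, 0, 0 and 0 in WT and 9, 9 and 9 in KO tumours. Here the WT tumours stood apart.

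In both genes the call of gel against host came with 1 host group at 0. For Gm22786 every gel tumour (13 to 19) also lay above every host tumour, the nearest being B1 and B3 at 12. For Mir3572 the gel tumours (7 to 11) overlapped the KO tumours. The log2 fold change was 3.76 (SE 0.42, adjusted p = 0.0114, edgeR) for Gm22786 and 3.04 (SE 0.43, adjusted p = 0.0392, edgeR) for Mir3572. With a group at 0 these values depend on the prior count and are no measure of size. Tested directly, KO against WT, the adjusted p was 0.794 for both with the 6 host tumours. It was 0.011 and 0.0108 when all 12 tumours set the spread. Mir3572 lost its call without any 1 tumour except B5 (adjusted p 0.0535 to 0.098). Neither gene had an exon variant. Of the coding neighbours, Htr2b, Cnot3 and Leng1 had a similar gap between the host groups. In Psmd1, which holds Gm22786, the gap was small, with 11, 3 and 5 in WT and 1, 2 and 2 in KO. The gel tumours held 2 to 7 for Psmd1 and overlapped KO. Htr2b had flanking counts of 19, 7 and 13 in WT and 0, 1 and 0 in KO, and Leng1, the next gene after Cnot3, had 0, 0 and 0 in WT and 13, 21 and 19 in KO.

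For stiff against soft and for KO against WT, 0.0% of 23431 and 0.0% of 24875 genes passed by flanking count, with none of 2008 and none of 2248 small RNA genes. At an unadjusted p under 0.05 in edgeR there were 157 of 2008 small RNA genes for stiff against soft, beside 1529 of 23431 genes of all biotypes. For KO against WT it was 153 of 2248, beside 1398 of 24875. For gel against host it was 610 of 2890, beside 6045 of 32011. Each share of small RNA genes was near that of all genes. The number called in gel against host depended on B5. Without it 86 small RNA genes and 810 genes in all were called, 770 of these lower in gel tumours. DESeq2 with equal size factors called 89 small RNA genes and 743 in all. Those called without B5 included Mir100 and Mirlet7a-2, which lie together inside Mir100hg on chromosome 9. Mir100 had flanking counts of 5, 8 and 6 in soft, 2, 0 and 3 in stiff, 25, 14 and 10 in WT and 11, 6 and 11 in KO tumours. Its log2 fold change without B5 was -1.99 (adjusted p = 0.0454, edgeR).

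Some small RNA genes had no flanking variant in any stiff tumour. Those described here were picked by their values. How many genes of any biotype split soft from stiff tumours by flanking count, in either direction, was not counted. The pattern therefore has no background to be read against. Mir101c, at the start of the gene order of chromosome 9 before Alkbh8, had flanking counts of 50, 46 and 23 in soft, 0, 0 and 0 in stiff, 53, 34 and 15 in WT and 39, 1 and 71 in KO tumours. The stiff tumours and B5 were at or near 0. The edgeR adjusted p for stiff against soft was 0.661 and the DESeq2 value was 0.000108, so the call depended on the tool. The snoRNA gene Gm25816, inside Snhg14 on chromosome 7, had 12, 9 and 11 in soft, 0, 0 and 0 in stiff, 24, 13 and 6 in WT and 10, 11 and 18 in KO tumours. It too missed the threshold for stiff against soft in edgeR (adjusted p = 0.661). The snRNA gene Gm23093 (9, 9 and 14 in soft, 0 in each stiff tumour) and the snoRNA gene Gm24127 (4, 6 and 6, and 0 in each) had the same pattern and the same adjusted p, 0.661 in edgeR.

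**Figure D3:**
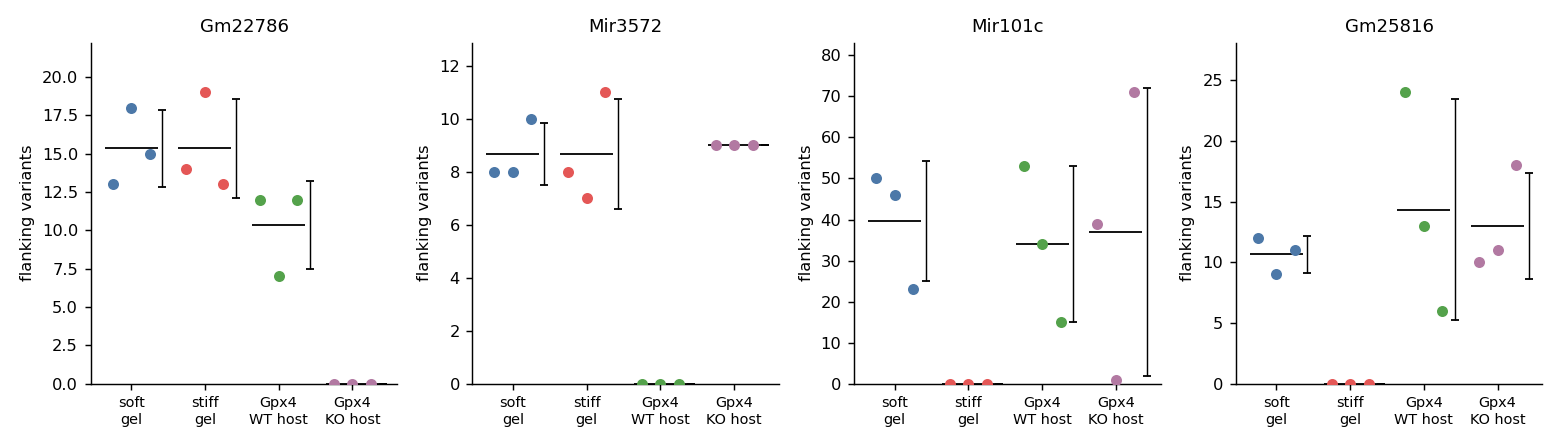
Flanking variants of 4 small RNA genes by group (points, tumours; line, mean; bar, SD, n = 3). All 3 KO tumours are at 0 for Gm22786, all 3 WT tumours at 0 for Mir3572, and all 3 stiff tumours at 0 for Mir101c and Gm25816; each panel has its own scale.

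A9 and B5 stood apart from the other tumours in the imprinted snoRNA arrays of chromosome 7. Between Ube3a and Snrpn the long transcript Snhg14 is the host of tandem C/D box snoRNA genes, the region whose loss on the paternal chromosome gives Prader-Willi syndrome in people. In the RefSeq gene order 185 snoRNA genes of these tables lie there, 115 between Ube3a and Ipw, where the copies are 1871 bp apart at the median, and 70 between Ipw and Snrpn, where the Snord116l genes lie. The set was picked after its counts were seen and was given no test. Its genes held 38.6% to 57.4% of all snoRNA flanking variants in 10 tumours, but 14.1% in A9 and 15.6% in B5.

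Their summed flanking counts were 3793, 3618 and 3700 in soft tumours, 3815, 4234 and 502 in stiff, 4646, 3990 and 3176 in WT and 3193, 584 and 4135 in KO. A9 and B5 were at 13.2% and 15.4% of the median of the other 10 tumours, 3804. Over the small RNA genes outside the arrays A9 was at 75.7% and B5 at 78.3% of that median, so the gap in the arrays was wider than the general lack of variants in these tumours. On the Ube3a side the sums were 420 in A9 and 403 in B5 against 2753 to 4112 in the other 10, and both tumours were below all others in 81 of 115 genes. On the Snrpn side A9 had 82, below all others, and B5 had 181, within the range of the other 10 (122 to 736, median 373.5). Because neighbouring copies share flanking variants, these genes are not independent of each other.

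The exon counts of the same genes, which neighbouring copies do not share unless they overlap, showed the gap too. The sums were 36, 27 and 26 in soft, 25, 28 and 2 in stiff, 35, 34 and 23 in WT and 20, 0 and 39 in KO tumours, over 43 genes with an exon variant. Gm24872 had 5 to 8 exon variants in 10 tumours and 0 in A9 and B5, and Gm25156 had 2 to 5 and 0. The flanks of Gm23145 held 79 to 109 variants in 10 tumours and 0 in A9 and B5. The exons of Snhg14 itself held 18 variants in A9 and 18 in B5 against 17 to 25 in the other tumours, within their range. Its flanking count did have the gap, with 22 in A9 and 30 in B5 against 63 to 98. The copies are similar to each other, so a short read can be placed on the wrong copy, and whether depth or read placement differed in A9 and B5 was not tested because the tables do not give them.

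Exon variants missing from A9 and B5 alone were counted over all small RNA genes. Of 9 small RNA genes with an exon variant in exactly 10 tumours, 8 lacked it in A9 and B5, among them the miRNA genes Gm24022 (1 to 6 in the others) and Gm27663 (3 to 9). Without the arrays it was 4 of 5, with Gm24022 counted under 2 gene identifiers that have the same counts. Among other genes with an exon variant in exactly 10 tumours, A9 and B5 were the missing pair in 19.7% (91 of 462). By flanking count they were the missing pair in 6.29% (20 of 318) of small RNA genes outside the arrays and in 9.81% (281 of 2865) of other genes. Outside the arrays the share by flanking count was thus not higher in small RNA genes than in other genes. A9 is a stiff gel tumour and B5 a KO host tumour, so the arrays took part in both group differences. Without the arrays, an alternative added after seeing the data, the difference in flanking variants was -14.7% for stiff against soft and -21.1% for KO against WT, beside -16.2% and -22.7% with them.

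**Figure D4:**
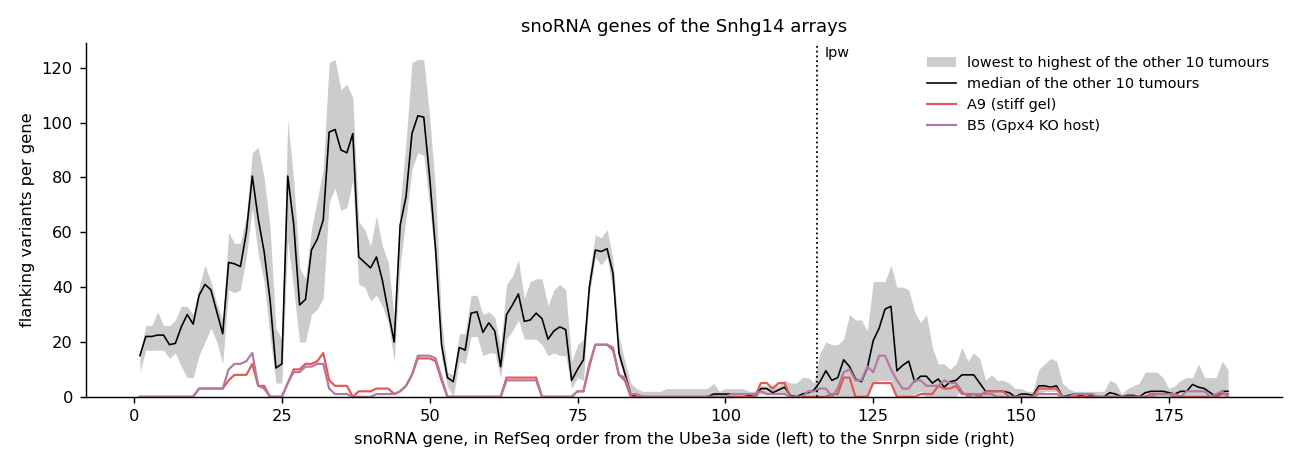
Flanking variants of the 185 snoRNA genes between Ube3a and Snrpn, in RefSeq gene order (horizontal axis, rank and not distance; dotted line, Ipw). The grey band runs from the lowest to the highest of the 10 other tumours and the black line is their median; A9 and B5 run under the band over most of the Ube3a side, where their sums are 420 and 403 against 2753 to 4112.

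The named snoRNAs of the Snrpn side and of other host genes had few exon variants. In the list of Snord64, Snord107 and Snord115 or Snord116 genes 4 of 19 had any, such as Snord116l9 with 1 each in A1 and B4, and B6 held 5 of the 7 variants. In the snoRNAs of Gas5 and Snhg1 introns, growth-arrest-linked host transcripts, 4 of 5 genes had one, counting both copies of Snord80 that share their counts. Snord47, inside Gas5, had flanking counts of 9, 5 and 2 in soft, 9, 1 and 8 in stiff, 20, 27 and 26 in WT and 13, 6 and 15 in KO tumours. All 3 WT tumours lay above the other 9. These flanks were picked after their values were seen, and how many genes have such a split was not counted. Over all genes the flanking sums were also high in WT tumours, at 313718 to 417967. The other 9 tumours had 204395 to 381281. With all tumours and the filters given, no gene of the lists passed the edgeR threshold by exon or flanking count in any of the 3 comparisons, in either direction. Without B5, 4 listed genes passed by flanking count in gel against host, all lower in gel tumours: Mirlet7a-2 (adjusted p = 0.0383, edgeR), Mir204 (0.0351), Mir467h (0.0396) and Mir146 (0.045). In that setting, with equal library sizes, 810 of 31266 genes of all biotypes passed, 770 of the 810 lower in gel tumours. How many listed genes were tested there was not counted, so the 4 are not a result about their families.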

How the data were processed

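Exomes of 12 tumours were captured with an Agilent SureSelectXT mouse kit and sequenced as read pairs, per the labels' protocols. BWA 2.2.1, SAMtools 1.19.2 and GATK, with build GRCm39, are named in the submitters' processing notes. No source used here gives the caller's settings or filters. The deposited tables, written by snpEff per the file headers, hold whole-number counts of variants per transcript and effect. For each gene the maximum over transcripts was taken, and an unlisted gene counted as 0. Flanking counts are upstream plus downstream. For 4 genes with small RNA and other transcripts, these were kept apart.

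Genes of all biotypes with an exon sum of at least 3, or a flanking sum of at least 10, were tested with edgeR 4.0.16 (quasi-likelihood, equal library sizes, Benjamini-Hochberg), with DESeq2 1.42.0 as an alternative. The 2 groups of an experiment were fitted alone and the 12 tumours for gel against host. Each SE is approximate, being the fold change on the log2 scale divided by the root of the F statistic. The fits were also run on simulated counts, in which only genes with higher counts than most small RNA exon counts were altered. The outcome is not reported here, and that run does not bear on the fits of low counts. Nothing in the labels says that tumours came from separate litters or donors, so a p-value covers only the spread among these tumours, which may in part be technical. The members and lists were chosen with earlier results of these data known. Named genes are those past the threshold and those in all tumours of one group and none of the other. Also named are the highest per biotype, miRNA genes hit in all 12 tumours, and up to 4 hit members of each list. Mir206, Mir101c, Mir100, Gm23093, Gm24127, Snord47 flanks and the Snhg14 genes were added after their values were seen. Names and neighbours follow a RefSeq table on GRCm38.p6, which matched 3532 of 5460 symbols. As that build differs from the tables' build, no coordinates are given. Alternatives changed the collapse over transcripts, biotypes, names, flank, filter, scaling, tool and tumours.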

Additional observations from a re-analysis of the deposited data

How the results depend on the processing

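No paired analysis was possible because the groups share no replicate numbers. Leaving out 1 tumour at a time, the exon difference ran from -20.4% to -6.3% for stiff against soft, from -31.4% to 0.436% for KO against WT and from -27.0% to -16.3% for gel against host. The flanking difference ran from -21.5% to -8.33%, from -37.9% to -9.84% and from -30.4% to -19.5%, and the ratio of exon to flanking variants from -2.18% to 2.37%, from 5.21% to 11.8% and from 2.95% to 6.64%. Genes with all-or-none exon counts numbered 4 to 8, 6 to 14 and 0 to 0, since fewer tumours must match. Members called by exon count stayed at 0 in every alternative, and those called by flanking count stayed at 0 in both experiments when 1 tumour was left out and ran from 1 to 86 for gel against host.

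For the ratio of exon to flanking variants, 0.566% for stiff against soft, the difference was -7.3% with miRNA genes only and -15.1% with named, unique symbols only. For KO against WT, 8.69%, it was 15.8% and 30.3%, and for gel against host, 4.33%, it was -8.22% with named symbols; the cause was not tested. All-or-none genes numbered 0 for stiff against soft with miRNA genes or named symbols only, 1 for KO against WT with either, and 6 and 14 without A9 and B5 together. By flanking count, DESeq2 with equal or with its own size factors called 1 member of 4 genes in all for stiff against soft, Mir101c (log2 fold change -7.75 and -7.63), and all 12 tumours in the fit called 2 of 20 for KO against WT. For gel against host the members called were 16 of 136 genes in all without a low count filter, 5 of 67 with a sum of at least 20, 0 of 9 with the experiment as the only term, 89 of 743 with DESeq2 at equal size factors and 20 of 174 with its own, beside 2 of 33. Gm22786 and Mir3572 lost the call with the experiment as the only term (1.55, adjusted p 0.264, and 0.93, adjusted p 0.521, edgeR), and Mir3572 also without A9 and B5 together (2.94, adjusted p 0.0549, edgeR). Depth is unknown, so an unlisted gene may lack reads or lack variants.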
